A study of Homo sapiens with 6 samples.

Results

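Tubulins are the proteins of which microtubules are built, and 9 tubulin genes were followed in 786-O, an established line of human renal carcinoma of the clear cell type (ccRCC), with and without overexpression of OGT. The 9 genes were the rows of the deposited expression table whose gene name was TUBA1A, TUBA1B, TUBA1C, TUBB, TUBB2A, TUBB3, TUBB4B, TUBB6 or TUBG1, 9 of 62703 genes in all. The rule used gene names and no measured value, though the 9 genes were chosen with earlier results of these data known. RNA was sequenced from 6 libraries. There were 3 libraries of 786-O cells whose genotype is labelled OGT overexpressed, called OGT below, and 3 of 786-O cells labelled NC, with the genotype WT. OGT encodes O-GlcNAc transferase, which places a single sugar on serines and threonines of nuclear and cytosolic proteins. The 786-O line is known to lack functional VHL protein, so both groups share that background. How OGT was introduced, and whether the cells were 1 clone or a pool, is not given in the sources used here. Nothing states that the replicates were separate cultures, so every p-value rests on the spread among these 6 libraries alone, which may be technical.

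Alpha- and beta-tubulin form the heterodimer that is added to and lost from microtubule ends, and gamma-tubulin sits in the ring complex from which microtubules grow. Vertebrates have several alpha and several beta genes, called isotypes, whose proteins differ mostly in the acidic tail at the carboxyl end. Cells are known to adjust alpha- and beta-tubulin mRNA to the amount of free heterodimer: TTC5 reads the first residues of the nascent protein on the ribosome, and the mRNA is then degraded.

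The first 30 coding bases of the 5 beta genes and 1 alpha gene are shown because TTC5 reads the residues encoded there, and that of gamma-tubulin because it is not known to be regulated in this way. Capitals mark the first 12 bases, which are 4 codons. Sequences are those of 1 protein-coding transcript per gene in GENCODE release 29 (GRCh38), written 5′ to 3′.
TUBB: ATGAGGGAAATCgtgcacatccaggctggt
TUBB4B: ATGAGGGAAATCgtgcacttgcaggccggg
TUBB3: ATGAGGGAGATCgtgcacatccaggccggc
TUBB6: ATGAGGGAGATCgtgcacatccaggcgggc
TUBB2A: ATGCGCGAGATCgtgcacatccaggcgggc
TUBA1B: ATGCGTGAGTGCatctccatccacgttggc
TUBG1: ATGCCGAGGGAAatcatcaccctacagttg

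TUBB and TUBB4B had the same 4 codons, as did TUBB3 and TUBB6. The codons differ between these pairs and TUBB2A, but in every beta gene shown they encode the same residues. TUBA1A, TUBA1B and TUBA1C had the same first 12 bases. The last 60 coding bases, which encode the tail by which isotypes are told apart, are shown with the stop codon in capitals for the 4 beta genes that changed.
TUBB: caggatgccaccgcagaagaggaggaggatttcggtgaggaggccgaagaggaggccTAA
TUBB4B: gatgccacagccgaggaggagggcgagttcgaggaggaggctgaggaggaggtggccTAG
TUBB3: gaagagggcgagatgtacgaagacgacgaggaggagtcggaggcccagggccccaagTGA
TUBB6: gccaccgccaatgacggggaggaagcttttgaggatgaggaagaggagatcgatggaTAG

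Because tubulin genes resemble each other, the share of each transcript that a read cannot assign to 1 gene was measured as the percent of its 100-base windows that also occur in a transcript of another annotated gene. No 100-base window was shared in TUBB6, 2.86% were in TUBB4B and 5.10% in TUBB, where all of them matched the pseudogene TUBBP1. TUBB and TUBB4B, whose coding sequences were 84.4% identical, shared 0 windows of 100 bases and 0 of 50 bases with each other. The 3 TUBA1 genes were 95.9% to 97.2% identical in coding sequence, and 37.2% of the windows of TUBA1B, 18.3% of those of TUBA1A and 11.5% of those of TUBA1C occurred in another gene. TUBB2A shared 56.4% of its windows, nearly all with TUBB2B. TUBB3 shared 89.04%, with a protein-coding gene annotated on the same strand, AC092143.1, that was listed at no more than 0.18 TPM in any library. TUBG1 shared 14.9% with TUBG2. Read length is not given in the sources used here, and shorter windows are shared more often: at 50 bases the share was 0.993% in TUBB6, 9.89% in TUBB4B, 18.2% in TUBB, 25.1% in TUBA1C, 29.9% in TUBG1, 41.1% in TUBA1A, 62.7% in TUBA1B, 65.5% in TUBB2A and 89.4% in TUBB3. Values of the TUBA1 genes, TUBB2A, TUBB3 and TUBG1 may thus depend on how shared reads were divided, which is not given in the sources used here.

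**Figure D1:**
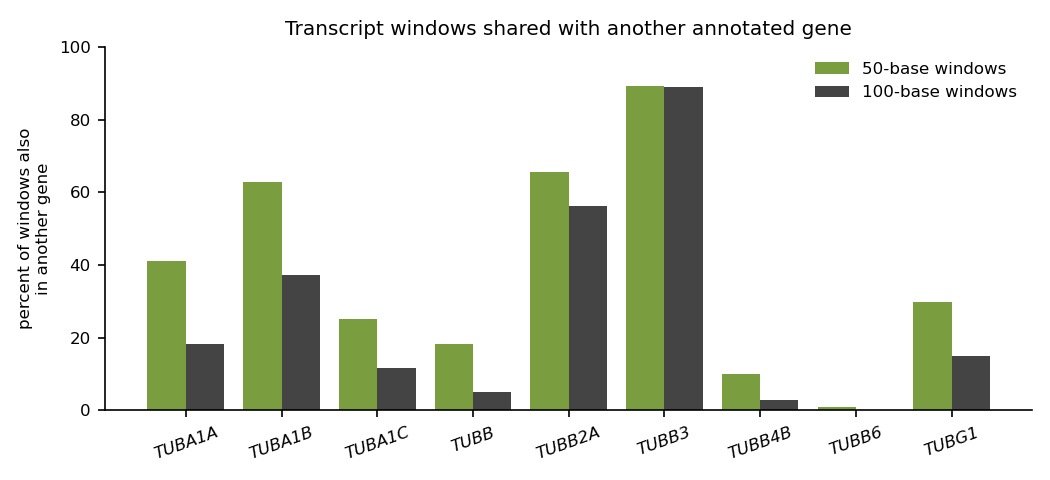
Percent of the 50-base (green) and 100-base (grey) windows of each tubulin transcript that also occur in a transcript of another gene of GENCODE release 29. TUBB6, TUBB4B and TUBB have few such windows of 100 bases (0%, 2.86% and 5.10%), and TUBB3 and TUBB2A have most (89.04% and 56.4%).

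Levels are given as TPM, a unit scaled for gene length and for the library's total. The library sums lay from 993935.5 to 996951.6 TPM. Read totals cannot be had from TPM, so depth is unknown and intervals for counting error cannot be given. OGT transcript was 352.74, 352.92 and 270.87 TPM in the OGT libraries, against 23.11, 22.57 and 23.62 TPM in the NC libraries, as the labels have it. The renal marker gene PAX8 averaged 199 ± 13.4 TPM in OGT and 136 ± 9.72 TPM in NC libraries (SD, n = 3 each), and the epithelial keratin gene KRT8 1208 ± 20.1 TPM and 1289 ± 36.9 TPM. Of 8 renal and epithelial markers 7 passed the filter described below, of which EPAS1, CDH2, VIM and PAX8 were called higher and KRT18 lower, and CA9, often high in this carcinoma, did not (0.31 to 0.5 TPM in OGT and 0.41 to 0.85 TPM in NC libraries). Of 9 leukocyte, endothelial and fibroblast markers only CD68, a lysosomal protein best known from macrophages, passed it, at 108 ± 10.1 TPM in OGT and 64.8 ± 3.68 TPM in NC libraries. NC library 1 stood apart: 125 genes had at least 5 TPM in it and under 1 TPM in the other 5 libraries, against 21 to 57 such genes in each other library. The leukocyte gene PTPRC was 12.23 TPM in NC library 1 and at most 0.07 TPM elsewhere, the endothelial gene PECAM1 4.22 TPM and at most 2.65 TPM, and the microtubule-associated gene MAP6 26.07 TPM and 0 TPM. Changes are differences of log2(TPM + 1), OGT minus NC, which understate changes of low genes, and were tested with limma over 12645 genes. A gene is said to have risen or fallen at a Benjamini-Hochberg adjusted p below 0.05. By that rule 48.8% of the tested genes changed, 39.1% higher and 9.70% lower, and the median change of all tested genes was 0.30 on the log2 scale. A corrected change, from which the dependence of every library on GC content and on transcript length was taken out, is given beside it. Values after ± are the SD of 3 libraries throughout.

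All 9 tubulin genes passed the filter of at least 1 TPM in 3 libraries. TUBB and TUBB6 rose, TUBB3, TUBB4B and TUBG1 fell, and TUBA1A, TUBA1B, TUBA1C and TUBB2A were not called. The 5 of 9 called stand beside 48.8% of all tested genes called, 2 higher beside 39.1% and 3 lower beside 9.70%. All 9 genes averaged over 50 TPM, and of the 2464 genes at or above that level 67.2% were called, 40.3% higher and 26.9% lower. The median change of the 9 genes was 0.04, beside 0.30 over all tested genes and 0.09 over the genes of at least 50 TPM. OGT and NC libraries did not overlap in 6 of the 9 genes, beside 58.6% of all tested genes. Without NC library 1 the same 5 genes were called, with log2 changes of 0.32 for TUBB, 0.31 for TUBB6, -0.33 for TUBB3, -0.32 for TUBB4B and -0.24 for TUBG1.

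**Figure D2:**
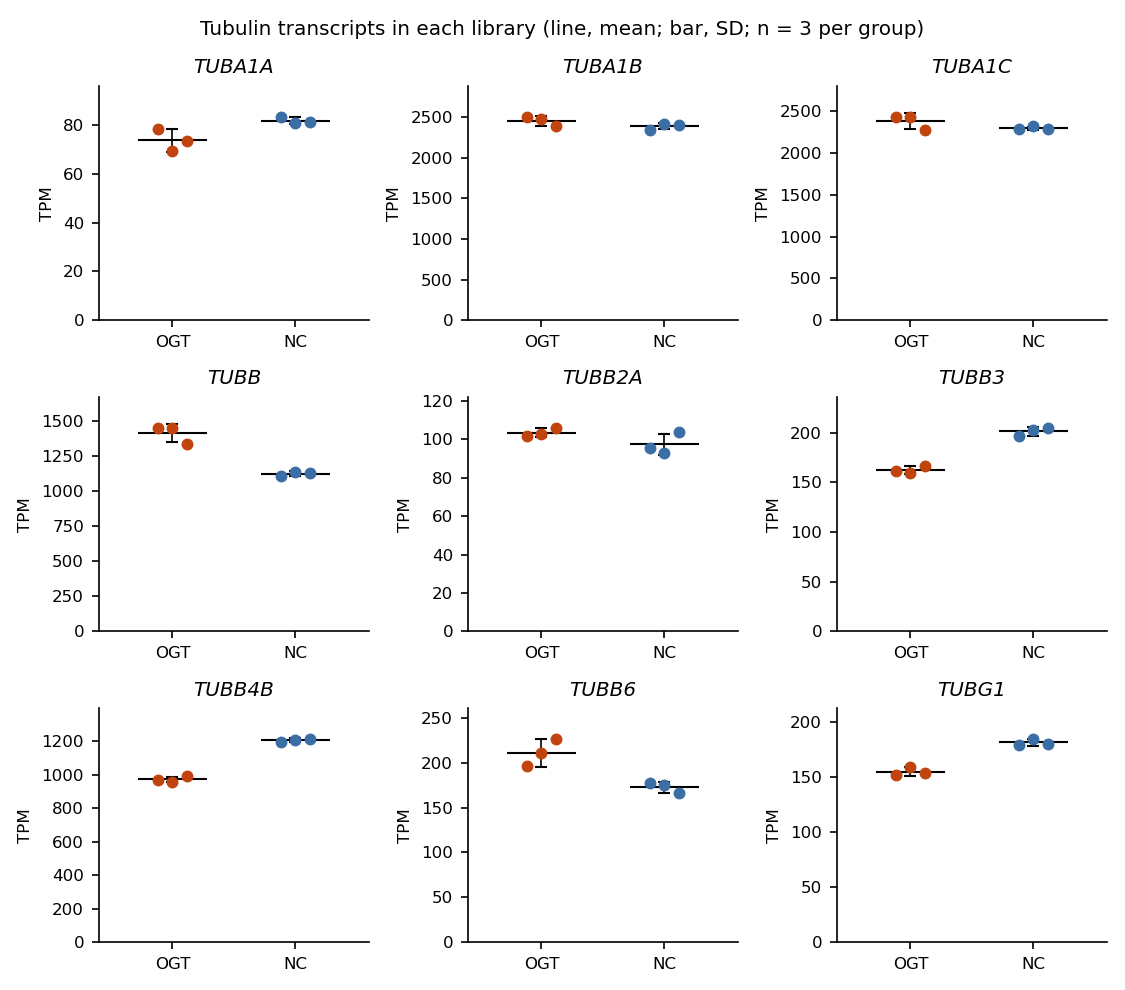
TPM of the 9 tubulin genes in each OGT (red, left) and NC (blue, right) library, with the mean as a line and the SD as a bar (n = 3 each); each panel has its own axis from 0. TUBB and TUBB6 lie higher and TUBA1A, TUBB3, TUBB4B and TUBG1 lower in every OGT library than in any NC library. The ranges of TUBA1B, TUBA1C and TUBB2A overlap.

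The largest shift in level was between both major beta-tubulin genes. TUBB, the class I beta-tubulin that most cells make (ENSG00000196230, chromosome 6, 30720201 to 30725426, plus strand, GRCh38), was 1450.71, 1447.57 and 1337.14 TPM in OGT libraries, against 1105.17, 1138.07 and 1125.14 TPM in NC libraries. It rose to 1412 ± 64.7 TPM in OGT cells, against 1123 ± 16.6 TPM in NC cells (SD, n = 3 each), 1.26-fold. All 3 OGT libraries lay above all NC libraries and OGT library 3 was the lowest of the 3. The log2 change was 0.33 (SE 0.0405, limma adjusted p = 0.000816). In RNA from bulk cells, a change in the number of cells with the transcript and a change per cell cannot be told apart. The change of TUBB was 0.09 and no longer called after the GC and length correction (limma adjusted p = 0.103), and -0.06 when each library was centred on its median (limma adjusted p = 0.351).

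TUBB4B, the class IVb beta-tubulin, which is also widely expressed (ENSG00000188229, chromosome 9, 137241213 to 137243707, plus strand), went the other way. It was 967.13, 956.36 and 989.06 TPM in OGT libraries, against 1193.23, 1208.81 and 1214.47 TPM in NC libraries. The 3 libraries of each group lay close together and the groups did not overlap. TUBB4B averaged 971 ± 16.7 TPM in OGT and 1206 ± 11.0 TPM in NC cells (SD, n = 3 each), 0.805-fold. The log2 change was -0.31 (SE 0.0296, limma adjusted p = 0.000313), -0.20 after the correction (limma adjusted p = 0.00319) and -0.70 after median centring.

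The order of these genes was thereby exchanged. In OGT cells TUBB stood above TUBB4B, and in NC cells TUBB4B stood above TUBB, with no overlap within either group. The ratio of TUBB to TUBB4B was 1.50, 1.51 and 1.35 in the OGT libraries and 0.926, 0.941 and 0.926 in the NC libraries. A factor that scales a whole library leaves such a ratio as it is. The difference between the changes of TUBB and TUBB4B was 0.64 on the log2 scale, 0.29 after the GC and length correction, 0.70 under quantile normalization, and between 0.61 and 0.69 with each library left out in turn, and was not itself tested. The transcripts used for the correction were 2903 bases long with 52.6% GC for TUBB and 1637 bases long with 59.4% GC for TUBB4B.

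TUBB6 and TUBB3, both of lower level, were exchanged in the same way. TUBB6, the class V beta-tubulin (ENSG00000176014, chromosome 18, 12307669 to 12344320, plus strand), was 195.67, 210.63 and 226.64 TPM in OGT libraries, against 177.26, 174.49 and 165.83 TPM in NC libraries. It rose to 211 ± 15.5 TPM in OGT cells, against 173 ± 5.96 TPM in NC cells (SD, n = 3 each). The log2 change was 0.29 (SE 0.0624, limma adjusted p = 0.00859) and 0.33 after the correction (limma adjusted p = 0.0127), but -0.10 after median centring (limma adjusted p = 0.306). Every OGT library was above every NC library, with a wider spread among the OGT libraries.

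TUBB3, the class III beta-tubulin known from neurons and also from many carcinomas (ENSG00000258947, chromosome 16, 89921392 to 89938761, plus strand), was 161.45, 159.33 and 166.82 TPM in OGT libraries. In NC libraries it was 196.26, 202.95 and 204.96 TPM. It fell to 163 ± 3.86 TPM in OGT cells, against 201 ± 4.55 TPM in NC cells (SD, n = 3 each), without overlap. The log2 change was -0.31 (SE 0.0418, limma adjusted p = 0.00123), -0.24 after the correction and -0.70 after median centring. Of 12 neuron marker genes only NEFL and MAP2 passed the filter, and neither was called, although NEFL was called lower after the correction (-0.69, limma adjusted p = 0.00432). Summed over the 12 markers the level was 15.03 to 19.03 TPM in OGT libraries and 17.28 to 18.58 TPM in NC libraries, and DCX, ELAVL3, STMN2 and INA were listed at 0 TPM in all 6. The ratio of TUBB6 to TUBB3 was 1.21, 1.32 and 1.36 in OGT and 0.903, 0.860 and 0.809 in NC libraries. The difference between their changes was 0.59, 0.56 after the correction and 0.62 under quantile normalization, and was not itself tested.

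TUBB2A, the class IIa gene, was 101.5, 102.93 and 106.09 TPM in OGT libraries, against 95.33, 93.01 and 103.69 TPM in NC libraries, with overlapping ranges. Its log2 change of 0.09 was not called (limma adjusted p = 0.239, 95% confidence interval -0.05 to 0.22). It was called higher after the correction (0.21, limma adjusted p = 0.025), but stood at -0.02 under quantile normalization and -0.30 after median centring (limma adjusted p = 0.00717).

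Summed over all 10 beta genes of the table, beta-tubulin was 2882, 2881 and 2832 TPM in OGT libraries, against 2776, 2827 and 2821 TPM in NC libraries. The means of 2865 ± 28.6 TPM in OGT and 2808 ± 28.1 TPM in NC cells differed by 56.9 TPM, while TUBB alone differed by 289 TPM and TUBB4B by -235 TPM. TUBB made up 50.3%, 50.2% and 47.2% of beta-tubulin TPM in OGT libraries and 39.8%, 40.3% and 39.9% in NC libraries. TUBB4B made up 33.6%, 33.2% and 34.9% in OGT libraries and 42.99%, 42.8% and 43.1% in NC libraries. The share of TUBB6 was 7.37% ± 0.609 in OGT and 6.15% ± 0.255 in NC libraries, and that of TUBB3 5.67% ± 0.191 and 7.17% ± 0.0977 (SD, n = 3 each). TUBB2A held 3.61% ± 0.118 in OGT and 3.47% ± 0.195 in NC libraries, with overlapping ranges. These sums and shares are given without a test.

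**Figure D3:**
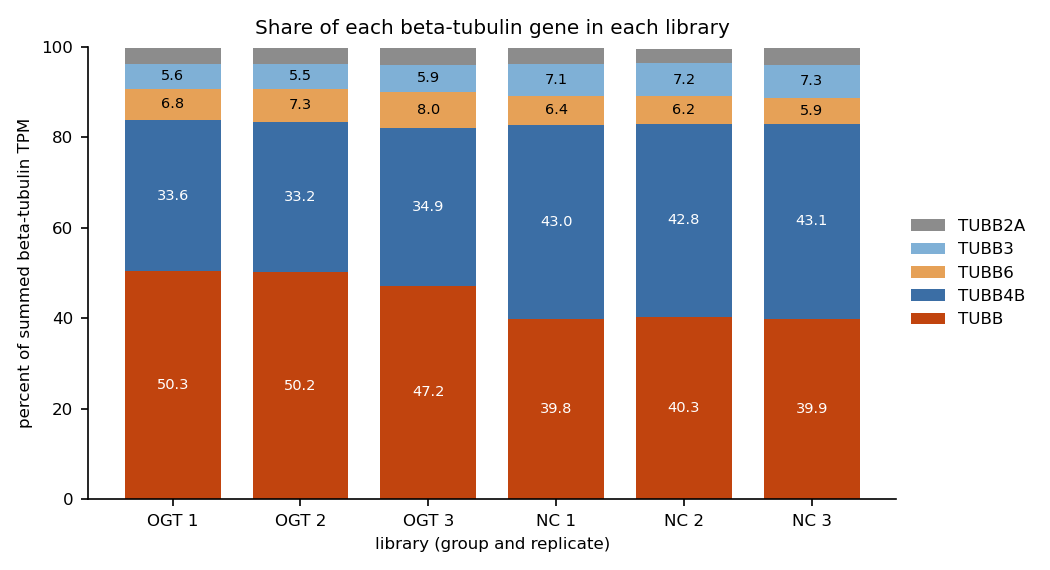
Percent of the summed beta-tubulin TPM held by each of 5 beta-tubulin genes in each OGT and NC library; the small rest to 100% is that of other beta genes. TUBB holds 47.2% to 50.3% in OGT libraries and 39.8% to 40.3% in NC libraries, and TUBB4B 33.2% to 34.9% in OGT libraries and 42.8% to 43.1% in NC libraries.

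Alpha-tubulin RNA came from TUBA1B and TUBA1C in nearly equal parts, and their levels differed little between the groups. TUBA1B, a widely expressed alpha gene (ENSG00000123416, chromosome 12, 49127782 to 49131397, minus strand), was 2504.74, 2471.11 and 2385.7 TPM in OGT libraries, against 2345.49, 2411.01 and 2399.9 TPM in NC libraries. Its neighbour TUBA1C (ENSG00000167553, chromosome 12, 49188736 to 49274603, plus strand) was 2429.28, 2425.27 and 2268.73 TPM in OGT libraries, against 2276.35, 2311.23 and 2286.2 TPM in NC libraries. In both genes the ranges overlapped, and OGT library 3 was the lowest OGT library.

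The log2 change was 0.04 for TUBA1B (95% confidence interval -0.03 to 0.11, limma adjusted p = 0.307) and 0.05 for TUBA1C (-0.03 to 0.13, limma adjusted p = 0.268). TUBA1C was called higher without OGT library 3 (0.08, limma adjusted p = 0.031). The direction for both genes depended on scaling: both were called higher under quantile normalization (0.18 and 0.19) and lower after median centring (-0.35 and -0.34). After the GC and length correction TUBA1C was called lower (-0.23, limma adjusted p = 0.00238) and TUBA1B was not called (-0.0020, limma adjusted p = 0.97). The ratio of TUBA1B to TUBA1C was 1.03 ± 0.0165 in OGT and 1.04 ± 0.00985 in NC libraries (SD, n = 3 each).

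Annotated antisense genes overlap both alpha genes. AC125611.3 shares 666 exon bases with TUBA1C and was listed at 519.27 to 641.13 TPM in OGT libraries, against 553.85 to 630.13 TPM in NC libraries. AC011603.2 shares 1182 exon bases with TUBA1B and was listed at 19.23 to 36.06 TPM in OGT libraries, against 37.58 to 49.32 TPM in NC libraries. Genes on the opposite strand also share exon bases with called tubulin genes. AL662797.1 shares 538 with TUBB (at most 6.93 TPM in any library) and FAM166A 124 with TUBB4B (0 TPM). RETREG3 shares 106 with TUBG1 and was 20 to 23 TPM in OGT and 13.47 to 15.62 TPM in NC libraries. The library kit's strand setting is not stated, so reads of these genes and of their tubulin partners may not have been told apart.

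TUBA1A, the alpha gene best known from developing neurons (chromosome 12, 49184796 to 49189324, minus strand), was 78.36, 69.2 and 73.21 TPM in OGT libraries, against 83.33, 80.56 and 81.06 TPM in NC libraries. All OGT libraries lay below all NC libraries, yet the log2 change of -0.15 was not called (limma adjusted p = 0.081). It was called at -0.27 after the correction (limma adjusted p = 0.0149), -0.29 under quantile normalization and -0.54 after median centring. TUBA1A held 1.46% ± 0.0933 of alpha-tubulin TPM in OGT and 1.66% ± 0.0483 in NC libraries (SD, n = 3 each). In the annotation its transcript shares 249 exon bases with TUBA1C on the opposite strand.

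Summed over 9 alpha genes, alpha-tubulin was 5060 ± 163 TPM in OGT and 4911 ± 54.6 TPM in NC libraries (SD, n = 3 each), with overlapping ranges. The alpha to beta ratio of summed TPM was 1.77 ± 0.0398 in OGT and 1.75 ± 0.00648 in NC libraries. Alpha and beta genes together made up 0.796% ± 0.0182 of all TPM in OGT and 0.776% ± 0.00771 in NC libraries.

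TUBG1, which encodes gamma-tubulin (ENSG00000131462, chromosome 17, 42609676 to 42615234, plus strand), fell. It was 151.94, 159.62 and 154.09 TPM in OGT libraries, against 179.63, 185.28 and 180.42 TPM in NC libraries, without overlap. The log2 change was -0.23 (SE 0.0416, limma adjusted p = 0.00428), -0.13 after the correction (limma adjusted p = 0.0483) and -0.62 after median centring. Its close copy TUBG2 was 6.98 to 9.74 TPM in OGT and 7.45 to 8.2 TPM in NC libraries.

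Ordered by mean level, the genes ran TUBA1B, TUBA1C, TUBB, TUBB4B, TUBB6, TUBB3, TUBG1, TUBB2A and TUBA1A in OGT cells. The order in NC cells was TUBA1B, TUBA1C, TUBB4B, TUBB, TUBB3, TUBG1, TUBB6, TUBB2A and TUBA1A. Among neighbours in this order the ranges of the libraries overlapped between TUBA1B and TUBA1C and between TUBB3 and TUBG1 in OGT cells, and between no neighbours in NC cells.

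**Figure D4:**
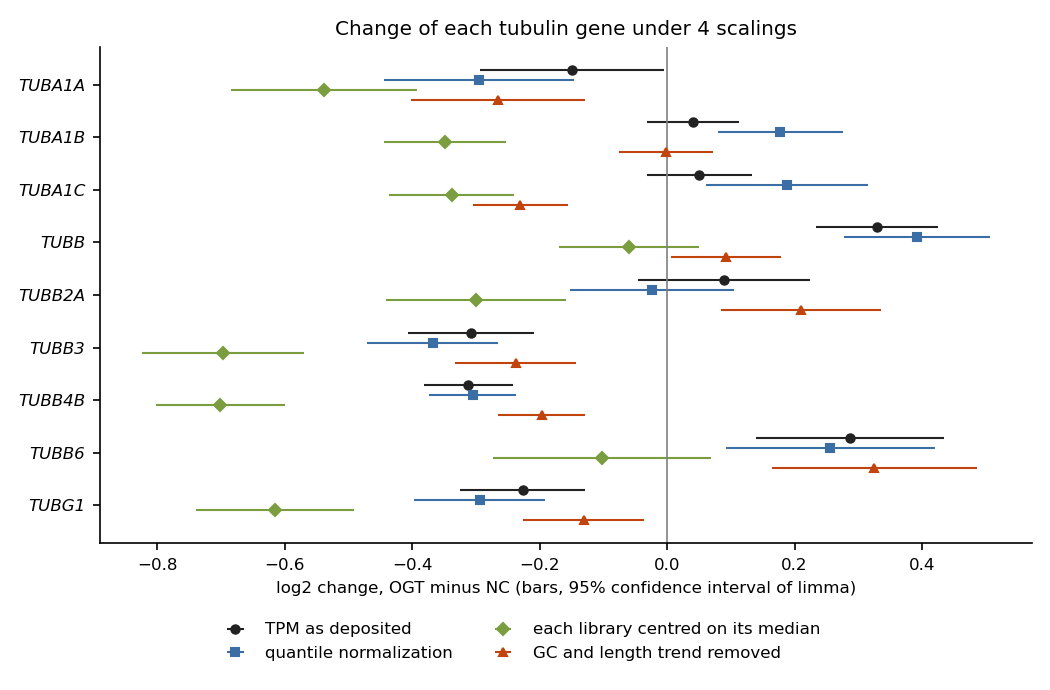
Log2 change (OGT minus NC) of the 9 tubulin genes with the 95% confidence interval from limma, for TPM as deposited (black), quantile normalization (blue), libraries centred on their medians (green) and removal of the GC and length trend (red). TUBA1A, TUBB3, TUBB4B and TUBG1 lie below 0 under all 4, though TUBA1A was not called for TPM as deposited. TUBB and TUBB6 lie below 0 only under median centring, and TUBA1B, TUBA1C and TUBB2A change sign.

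After the GC and length correction 2 of the 9 genes were called higher and 5 lower, beside 16.0% and 12.8% of 12348 genes. Of those 12348 genes 28.8% were called in either direction. After median centring 0 were called higher by limma, also at an unadjusted p below 0.05, and 7 lower, beside 15.3% and 24.2% of all tested genes, which makes 39.6% called. Under quantile normalization 4 were called higher and 4 lower, beside 20.2% and 17.8%, which makes 38.0% called. TUBB3 and TUBB4B were called lower under all 15 alternatives tried.

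Of 13 other tubulin genes, 8 passed the filter, 0 rose and 1 fell, beside 39.1% and 9.70% of all tested genes. TUBB4A, the class IVa beta gene known from brain, fell to 2.64, 1.86 and 3.05 TPM in OGT libraries, against 6.17, 5.24 and 5.11 TPM in NC libraries. Its log2 change was -0.90 (SE 0.190, limma adjusted p = 0.0077) and -0.91 after the correction. TUBA4A, an alpha gene of moderate level, was 155 ± 13.3 TPM in OGT and 149 ± 6.01 TPM in NC cells (SD, n = 3 each). Its log2 change was 0.05 (limma adjusted p = 0.593) and -0.0064 after the correction (limma adjusted p = 0.953), and its sign turned with the scaling. TUBE1 was 5.19 to 7.78 TPM in OGT and 5.02 to 7.88 TPM in NC libraries. TUBB2B, TUBD1, TUBAL3 and TUBA8 reached at most 4.65 TPM and were not called, while TUBA3C, TUBA3D, TUBA3E, TUBB1 and TUBB8 did not pass the filter. Among 52 tubulin pseudogenes listed, only TUBBP1 passed the filter, at 13.48 to 17.22 TPM in OGT and 11.7 to 15.92 TPM in NC libraries, and it was not called.

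Genes that fold tubulin moved in both directions. Prefoldin carries nascent tubulin to the chaperonin TRiC, and the cofactors TBCA to TBCE then join alpha to beta. The list of 21 genes counts TBCEL and ARL2 with these and has 22 rows, since TBCE is listed under 2 identifiers. Of the 22 rows 13 rose and 3 fell, beside 39.1% and 9.70% of all tested genes, with a median change of 0.38 beside 0.30. TBCEL, which rose, was 0.35 to 0.97 TPM in NC libraries and passed the filter through the OGT libraries alone. The lower of the TBCE rows also rose, was 0.8 to 1.01 TPM in NC libraries and passed only with the OGT libraries. Both rows could hardly have been called lower, so the filter favours rises in this count. TRiC subunit genes led the rises, but CCT7 did not rise. CCT7 averaged 528 ± 8.46 TPM in OGT and 542 ± 17.7 TPM in NC cells (log2 change -0.04, limma adjusted p = 0.442). It was called lower after the correction (-0.19, limma adjusted p = 0.0124). CCT4 averaged 82.4 ± 2.37 TPM in OGT and 32.8 ± 2.02 TPM in NC cells (log2 change 1.31, corrected 0.80), CCT6A 93.7 ± 4.73 TPM and 42.4 ± 0.886 TPM (1.12, corrected 0.58), and TCP1 109 ± 4.92 TPM and 54.9 ± 3.61 TPM (0.98, corrected 0.45). The 3 that fell were prefoldin subunit genes, while the subunit genes VBP1 and PFDN1 rose (log2 changes 0.93 and 0.45, corrected 0.49 and 0.34, of which only that of PFDN1 was still called). PFDN4 was 16.28, 20.47 and 23.47 TPM in OGT libraries, against 187.37, 190.65 and 177.57 TPM in NC libraries (log2 change -3.16, corrected -3.51). PFDN6 fell by 0.59 on the log2 scale (corrected -0.55) and PFDN5 by 0.40 (corrected -0.32). The correction left 10 rows higher and 5 lower, beside 16.0% and 12.8% of all genes, and median centring 7 higher and 9 lower, beside 15.3% and 24.2%.

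Of the machinery that degrades tubulin mRNA, most CCR4-NOT subunit genes were higher as deposited, while TTC5 and SCAPER were not. Fewer of the subunit genes stayed called higher after the correction. TTC5 binds the nascent tubulin, SCAPER joins it to the CCR4-NOT deadenylase, and CCR4-NOT shortens the poly(A) tail. Of 12 such genes 8 rose and 0 fell, beside 39.1% higher and 9.70% lower of all tested genes. The median change was 0.73 beside 0.30, and 0 were lower also at an unadjusted limma p below 0.05. Among those that rose, CNOT6 was 0.69 to 0.91 TPM and CNOT6L 0.37 to 0.61 TPM in NC libraries. Both passed the filter through the OGT libraries alone and could hardly have been called lower, so the filter favours rises in this count. The deadenylase subunit gene CNOT11 averaged 33.4 ± 2.15 TPM in OGT and 15.8 ± 1.25 TPM in NC cells (log2 change 1.04, corrected 0.73), and CNOT9 27.4 ± 1.51 TPM and 16.7 ± 1.80 TPM (0.69, corrected 0.16). CNOT2 had a change of 1.08 (corrected 0.40) and CNOT8 one of 0.75 (corrected 0.19). The calls of CNOT9, CNOT2 and CNOT8 were lost after the correction, which left 2 genes higher and 2 lower, beside 16.0% and 12.8% of all genes. Median centring left 3 higher and 1 lower, beside 15.3% and 24.2%. TTC5 itself was 17.99, 16.53 and 17.93 TPM in OGT libraries, against 21.43, 21.49 and 16.78 TPM in NC libraries, and was not called (log2 change -0.17, limma adjusted p = 0.272). It was called lower after the correction (-0.91) and after median centring (-0.56). SCAPER was 0.66 to 1.7 TPM in OGT and 0.64 to 1.77 TPM in NC libraries.

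Of 20 genes of the gamma-tubulin ring complex and of augmin, which recruits it to existing microtubules, 18 passed the filter, 4 rose and 4 fell, beside 39.1% and 9.70% of all tested genes, with a median change of 0.07 beside 0.30. The augmin subunit gene HAUS4 fell to 35.2 ± 0.979 TPM in OGT, against 50.8 ± 3.71 TPM in NC cells (log2 change -0.52, corrected -0.58). MZT2B, a small subunit of the ring complex, averaged 564 ± 76.9 TPM in OGT and 804 ± 55.9 TPM in NC cells (-0.52), and its call was lost after the correction (-0.22, limma adjusted p = 0.0986). HAUS6 and NEDD1, which anchors the ring complex, had changes of 0.93 and 0.89, with 0.15 and 0.21 and no call after the correction. Both were low: HAUS6 averaged 3.54 ± 0.0473 TPM in OGT and 1.38 ± 0.118 TPM in NC cells, and NEDD1 2.38 ± 0.468 TPM and 0.853 ± 0.484 TPM. NEDD1 was 1.41, 0.62 and 0.53 TPM in NC libraries. It passed the filter only with the OGT libraries and could hardly have been called lower, so the filter favours its rise. NEDD1 kept its call in only 5 of 14 alternatives and lost it when any 1 of 4 libraries was left out (limma adjusted p up to 0.078). The correction left 0 genes higher (1 at an unadjusted limma p below 0.05) and 6 lower, beside 16.0% and 12.8% of all genes, and median centring 1 higher and 9 lower, beside 15.3% and 24.2%.

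Of 27 genes of enzymes that modify tubulin 15 passed the filter, 3 rose and 1 fell, beside 39.1% and 9.70% of all tested genes, with a median change of 0.12 beside 0.30. TTLL5, a glutamylase, averaged 7.72 ± 0.547 TPM in OGT and 2.55 ± 0.517 TPM in NC cells (log2 change 1.31, corrected 0.74). The deacetylase gene SIRT2 fell to 41.9 ± 2.40 TPM in OGT, against 53.8 ± 4.82 TPM in NC cells (-0.35, corrected -0.32). The deglutamylase gene AGTPBP1 and the methyltransferase gene SETD2 rose by 0.86 and 0.95, and neither was called after the correction (0.11 and 0.21). AGTPBP1 was 1.39 to 2.37 TPM in OGT and 0.47 to 0.78 TPM in NC libraries. It thus passed the filter through the OGT libraries alone, and could hardly have been called lower. The tubulin acetyltransferase gene ATAT1 averaged 0.29 TPM in OGT and 0.257 TPM in NC cells and was not tested. The correction left 1 gene higher and 2 lower, beside 16.0% and 12.8% of all genes, and median centring 1 higher and 5 lower, beside 15.3% and 24.2%.

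Of 39 microtubule-associated genes 31 passed the filter, 12 rose and 1 fell, near the 39.1% and not above the 9.70% of all tested genes, and the median change of 0.32 was near the 0.30 of all genes. Among those that rose, CAMSAP2 was 0.63 to 1.03 TPM in NC libraries. It passed the filter only with the OGT libraries and could hardly have been called lower. The spindle assembly gene TPX2 averaged 99.5 ± 4.39 TPM in OGT and 48.5 ± 2.21 TPM in NC cells (log2 change 1.02, corrected 0.49). The microtubule polymerase gene CKAP5 averaged 32.4 ± 0.511 TPM and 12.8 ± 0.780 TPM (1.28, corrected 0.56). PRC1, which bundles the midzone of the spindle, had a change of 0.95 (corrected 0.44), and MAP4, which stabilizes microtubules, one of 0.73 (corrected 0.26). The 1 that fell was CAMSAP3, which binds microtubule minus ends, at 1.04 ± 0.294 TPM in OGT and 2.19 ± 0.291 TPM in NC cells (log2 change -0.65, corrected -0.80). CAMSAP3 lost its call when any 1 of 5 libraries was left out (limma adjusted p up to 0.0909), with no filter and with a replicate block. It was 0.71 to 1.28 TPM in OGT libraries and passed the filter only with the NC libraries. The correction left 5 genes higher and 2 lower, beside 16.0% and 12.8% of all genes, and median centring 11 higher and 8 lower, beside 15.3% and 24.2%.

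Of 14 proliferation marker genes 13 rose and 0 fell, beside 39.1% and 9.70% of all tested genes, with a median change of 0.38 beside 0.30. Without adjustment of the limma p for multiple tests, 0 of the 14 would be lower at 0.05. Their summed level was 1093 to 1159 TPM in OGT libraries, against 860 to 916 TPM in NC libraries. MKI67 averaged 17.3 ± 0.293 TPM in OGT and 5.01 ± 0.880 TPM in NC cells (log2 change 1.62, corrected 1.12), CCNA2 14.5 ± 0.499 TPM and 5.86 ± 0.369 TPM (1.17, corrected 0.57), while AURKA had a change of 0.91 (corrected 0.52) and PCNA one of 0.76 (corrected 0.48). The correction left 6 higher and 1 lower, beside 16.0% and 12.8% of all genes, and median centring 6 higher and 2 lower, beside 15.3% and 24.2%. The part of proliferation in the changes of the tubulin genes was not tested.

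**Figure D5:**
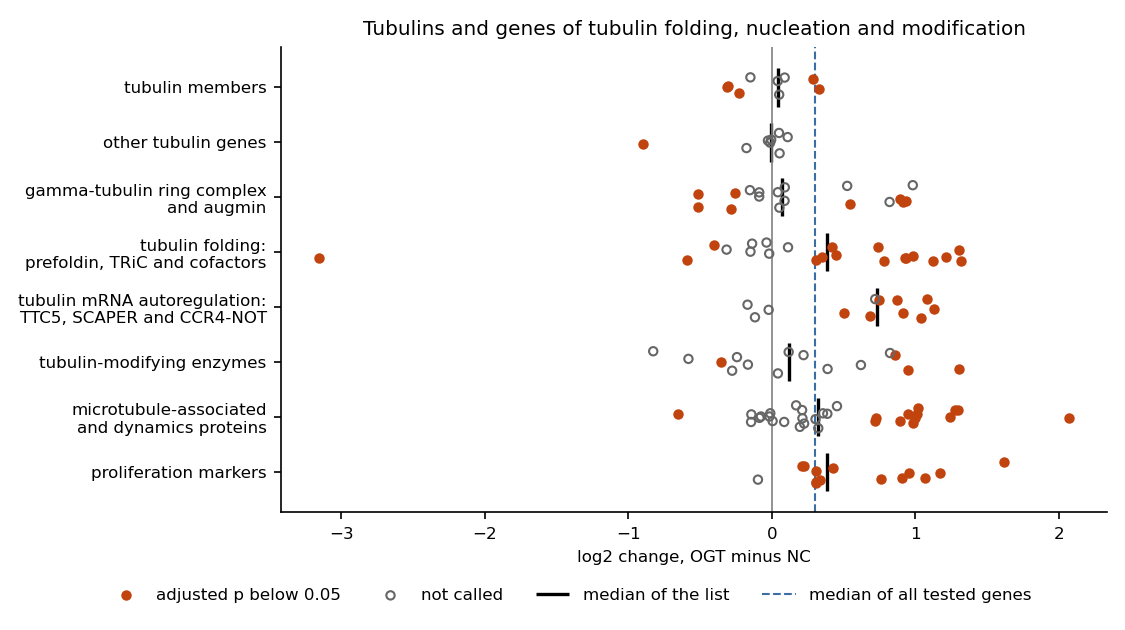
Log2 change (OGT minus NC) of the tubulin genes and of 7 gene lists, 1 point per tested gene, filled where limma's adjusted p is below 0.05; black bars are list medians and the dashed line is the median of all tested genes, 0.30. The 9 tubulin genes lie within 0.33 of 0, and PFDN4 at -3.16 is the point farthest left.

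The 5 tested genes whose log2 level followed the log2 summed TPM of the 8 alpha and beta genes most closely over the 6 libraries were MT-ND5, STAT6, ZNF608, ANKFN1 and MAFG, with Pearson r between 0.983 and 0.996. This ranking is a description over 6 libraries chosen from 12645 genes, and none of the 5 was called between the groups.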

How the data were processed

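RNA was sequenced from 6 libraries of 786-O cells, made with an Illumina TruSeq RNA kit from total RNA, per the labels' protocols. The authors deposited a TPM value for each of 62703 human Ensembl gene identifiers in every library. The sources used here do not give the aligner, counting tool, strand setting or annotation. Per the submitters' processing notes the builds were GRCm38 and mm10, both of mouse. Groups and replicate numbers were taken from the sample titles.

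Genes of at least 1 TPM in at least 3 libraries (12645) entered limma 3.58.1 (R 4.3.3) as log2(TPM + 1) (eBayes with trend and robust, two-sided), with Benjamini-Hochberg adjustment over all of them and a threshold of 0.05. For the corrected change, the dependence of each library's values on GC content and log2 transcript length was removed (natural splines, 4 degrees of freedom each, longest GENCODE release 29 transcript, 12348 genes). Replicates that share a number were taken as unpaired, since the titles state no pairing. Correlations of their deviations from the group means were between -0.0194 and 0.0166. Transcript sequences and shared windows came from GENCODE release 29, on the sense strand.

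The tubulin genes and the gene lists were chosen with earlier results of these data known. All tubulin genes were eligible to be named. From each other list up to 4 called genes were named, in order of adjusted p, with the called genes of the rarer direction where there were 3 or fewer. TTC5, SCAPER, ATAT1, VBP1, PFDN1, MAP6, CCT7, TBCE, TBCEL, CAMSAP2, CNOT6 and CNOT6L were named for their role, position or values, after their values were seen. The same holds for the renal, neuron and leukocyte markers and the overlapping genes. Alternatives were a pseudocount of 0.1, no filter, a mean of at least 5 TPM, quantile normalization, median centring, the correction, a replicate block, plain eBayes and each library left out.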

Additional observations from a re-analysis of the deposited data

How the results depend on the processing

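Scaling moved the counts and several directions. Under quantile normalization 2558 genes were called higher and 2245 lower, after median centring 1937 and 3066, after the GC and length correction 1974 higher, and with the correction and a replicate block 1521 higher. The median change of all tested genes was -0.09 after median centring. Of the 9 tubulin genes 4 were called higher under quantile normalization, 0 higher and 7 lower after median centring, and 5 lower after the correction. TUBA1A became called under quantile normalization (-0.29), median centring (-0.54) and the correction with or without a replicate block (-0.27). TUBA1B was 0.18 under quantile normalization, -0.35 after median centring and -0.0020 after the correction with or without a block. TUBA1C was 0.19, -0.34 and -0.23 under the same settings, and between 0.034 and 0.083 with each library left out. TUBB was -0.059 after median centring and 0.093 after the correction with or without a block. TUBB2A was -0.024 under quantile normalization, -0.30 after median centring and 0.21 after the correction with or without a block. TUBB6 was -0.10 after median centring. TUBG1 lost its call with the correction and a block together (-0.13, limma adjusted p = 0.0971). TUBA4A was -0.039 under quantile normalization, -0.34 after median centring, -0.0064 after the correction with or without a block, and between -0.0061 and 0.12 with each library left out. The cause of these shifts was not tested.

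With the replicate block alone 4382 genes were called higher and 1091 lower, and 2 tubulin genes higher and 3 lower, as without it. Of the 6 libraries 1 correlated best with its own number. The depth behind the TPM values is unknown, and how reads shared between tubulin genes were divided is not given in the sources used here. Groups of 3 are too small to test single libraries as outliers.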
